A study of Mus musculus with 6 samples.

Results

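The unfolded protein response and the integrated stress response were followed through 33 genes, found by their symbols in a table of 25124 gene models, in the retina of mice with a C234W substitution in the fatty acid elongase Elovl2. The genes were set out by arm. There were 12 chaperones and folding enzymes of the endoplasmic reticulum (ER), 5 genes named as IRE1 and ATF6 targets, 9 regulators of the ATF4 arm and 7 genes of amino acid and one-carbon metabolism that ATF4 controls. All 33 passed the filter on low counts. The samples were 3 libraries of Elovl2(C234W) retina (FS3A, FS3B and FS5A) and 3 of wild-type retina (WT1A, WT2A and WT2B), from C57BL/6J mice aged 4 months. Elovl2 elongates long polyunsaturated fatty acids, a step towards docosahexaenoic acid, which is rich in photoreceptor membranes. Zygosity and sex are not stated in the labels, nor is it stated whether the libraries are from separate animals. FS3A and FS3B have a number in common in their names, as do WT2A and WT2B. The p-values therefore measure only the spread between these libraries, which may be technical. The table names wild-type columns as such, and the FS columns were read as C234W by elimination, which every direction given here rests on.

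When unfolded proteins build up in the ER, 3 membrane sensors respond. IRE1 splices the Xbp1 mRNA, ATF6 is cut to release a transcription factor, and PERK phosphorylates the initiation factor eIF2, which slows translation in general while favouring that of ATF4. ATF4 can also be raised by other eIF2 kinases, among them GCN2, which senses lack of amino acids; this wider program is the integrated stress response. Rod photoreceptors fold large amounts of rhodopsin in the ER, and chronic activity of these pathways is known from models of retinal degeneration. Gene-level counts do not show splicing of Xbp1, cleavage of ATF6 or phosphorylation of eIF2.

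The known binding motifs of these pathways are shown first because they are spread unevenly over the arms. The arms follow known regulation, in which such motifs took part, so this spread is a description. Windows from 250 bases before to 50 bases after the RefSeq start were searched on both strands on GRCm38.p6, and 30 members had a window (Aldh1l2, Hyou1 and Manf are named only). The ER stress element, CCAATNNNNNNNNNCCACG, bound by ATF6 with NF-Y, was present in 7 of 10 chaperone and folding genes, in 0 of the 20 members of the other arms with a window, and in 37 of all 27025 genes with a window (0.137%). The C/EBP-ATF element, TGATGNAA, was present in 3 of 9 ATF4 regulators, 2 of 6 metabolic genes, 1 of 5 IRE1/ATF6 targets and 0 of 10 chaperones, against 4.51% of all genes. The unfolded protein response element core, TGACGTG, was found in Hspa5 alone among members and in 2.22% of all genes. No matches overlapped each other. A match is a description of the letters, not evidence that a factor binds there.

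The stretches below lie before the start and let the letters behind the split between arms be read. They show 3 chaperone genes with the ER stress element and 5 genes of the other arms with the C/EBP-ATF element. Stretches were picked by the rank of their gene in edgeR p within its arm, smallest first, and not by level. They are written 5′ to 3′ on the strand of the gene, with the fixed letters of the ER stress element, or the whole C/EBP-ATF match, in capitals. They cover chr2:34772000-34772068 (plus strand) for Hspa5, chr8:84847050-84847118 (minus) for Calr, chr11:50325775-50325843 (minus) for Canx, chr8:94386292-94386349 (plus) for Herpud1, chr1:191183411-191183468 (minus) for Atf3, chr2:119351024-119351081 (plus) for Chac1, chr6:7693210-7693257 (minus) for Asns and chr3:50443628-50443704 (minus) for Slc7a11.
Hspa5: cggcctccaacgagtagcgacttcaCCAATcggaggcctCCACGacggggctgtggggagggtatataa
Calr: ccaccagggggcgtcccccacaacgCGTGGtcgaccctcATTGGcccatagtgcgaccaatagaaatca
Canx: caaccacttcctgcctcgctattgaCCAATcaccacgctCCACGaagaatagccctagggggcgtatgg
Herpud1: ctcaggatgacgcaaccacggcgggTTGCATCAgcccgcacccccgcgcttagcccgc
Atf3: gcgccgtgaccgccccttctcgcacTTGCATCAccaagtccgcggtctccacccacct
Chac1: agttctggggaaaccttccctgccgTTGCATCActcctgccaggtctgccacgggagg
Asns: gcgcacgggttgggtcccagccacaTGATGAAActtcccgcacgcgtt
Slc7a11: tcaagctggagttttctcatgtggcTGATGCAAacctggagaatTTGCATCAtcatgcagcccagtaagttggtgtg

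In Hspa5 the element ran from 65 to 47 bases before the start, in Canx from 145 to 127 bases before it, and in Calr it lay on the opposite strand, 162 to 144 bases before it. Slc7a11 held 2 copies of the C/EBP-ATF element, one on each strand, starting 66 and 47 bases before the start. Herpud1, Atf3 and Chac1 carried the same 8 letters, TTGCATCA, which is the element read on the other strand. Trib3 had its match after the start, and Hsp90b1 had 2 ER stress elements.

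**Figure D1:**
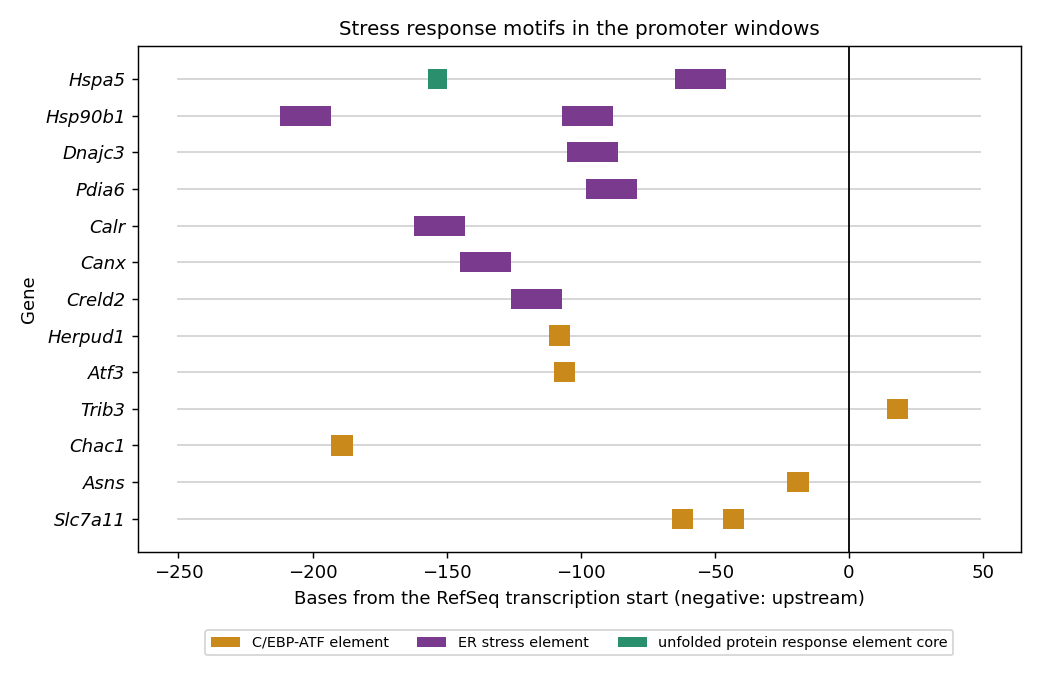
Matches to 3 stress response motifs in the promoter windows of the 13 members that held any, by distance in bases from the RefSeq start (negative is upstream). The purple ER stress elements are all in chaperone and folding genes, between 212 and 47 bases before the start.

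Facts of the libraries bear on every value below. Totals in genes ran from 15804645.5 to 19298613 counts in C234W libraries and from 14184093 to 18710329 in wild-type ones. Levels are CPM (library-scaled counts per 1e6) after TMM scaling, and values are listed in the order FS3A, FS3B and FS5A for C234W and WT1A, WT2A and WT2B for wild type. Rod markers were abundant in every library, so the tissue matched its label; 8 rod genes summed to between 62430 and 83170 CPM in C234W and between 92450 and 145900 CPM in wild type, without overlap. The sums of bipolar cell, ganglion cell and erythrocyte markers also separated the groups. Those of cones, Müller glia, reactive glia, microglia, pigment epithelium, lens and immediate early genes overlapped. Bipolar cell markers lay between 909.5 and 996.8 CPM in C234W and between 593.2 and 726.7 CPM in wild type. Ganglion cell markers lay between 1270 and 1526 CPM in C234W and between 1535 and 1912 CPM in wild type. Most of the ganglion cell sum was Nefl, with 1288, 878 and 1026 CPM in C234W and 1323, 1323 and 1360 CPM in wild type. For every other gene of that list the groups overlapped. Erythrocyte markers lay between 36.95 and 49.6 CPM in C234W and between 71.07 and 141.2 CPM in wild type. The part of these differences in the values below was not tested. Lens markers summed to less than 1 CPM per library. In bulk tissue, fewer cells of a type and less RNA per cell cannot be told apart. Elovl2 itself had 82.0, 90.1 and 116 CPM in C234W, against 142, 138 and 136 CPM in wild type, a log2 fold change of -0.53 (SE 0.165, edgeR adjusted p = 0.101). The C234W change is a substitution, so the level of the transcript is no check of the labels. WT1A correlated less closely with WT2A and WT2B (Pearson r of 0.966 and 0.962 across genes, on log2 CPM) than these did with each other (0.988). It was closer by this measure to each C234W library, with r of 0.972 to FS3A, 0.968 to FS3B and 0.975 to FS5A, than to either of the other wild-type libraries. Fold changes ran with transcript length. Their median on the log2 scale was -0.34 among the shortest 20% of gene models and 0.28 among the longest 20%.

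No member passed the test. At a Benjamini-Hochberg adjusted p under 0.05 in the quasi-likelihood test of edgeR, 0 of 33 members were higher in C234W and 0 were lower, while 0.184% of all genes tested were called higher and 1.28% lower. At an unadjusted p under 0.05, 2 members were higher (6.06%, against 11.9% of all genes) and 6 were lower (18.2%, against 13.5%). The groups did not overlap for 3 members with C234W above wild type and 4 with C234W below it, or 9.09% and 12.1%, against 12.6% and 16.4% of all genes. DESeq2 called 1 member higher, Aldh1l2, and 3 lower, Atf4, Ddit3 and Phgdh (3.03% and 9.09%, against 5.0% and 7.69% of all genes). Each share of members was below that of all genes, except for the lower calls at the unadjusted p and by DESeq2, which were above it by few members. The median log2 fold change of the members was -0.04, against 0.02 for all genes tested, and 14 members lay above 0 and 19 below it.

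**Figure D2:**
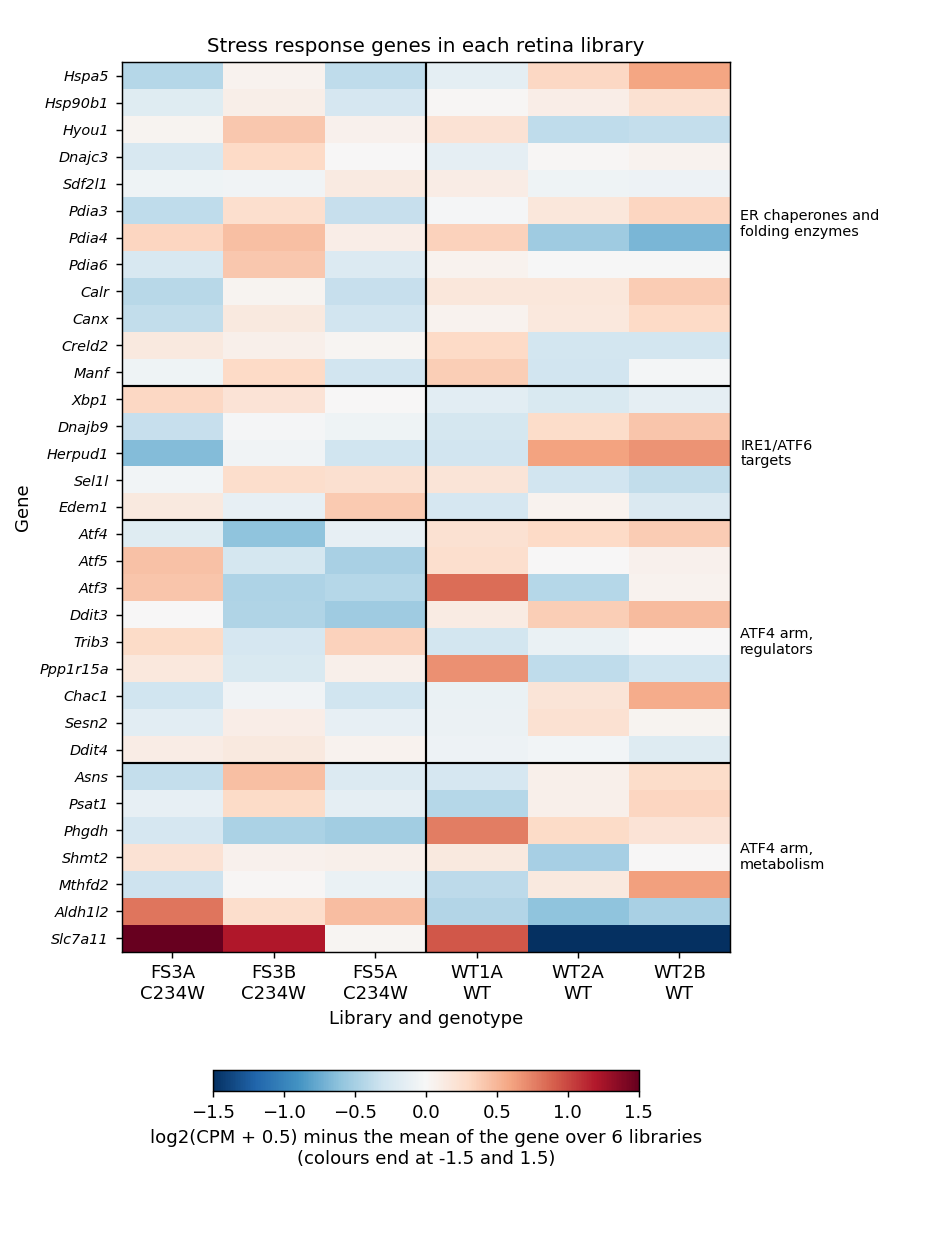
Level of each of the 33 genes (rows, by arm) in each library (columns), as log2(CPM + 0.5) minus the mean of that gene over the 6 libraries, with red for higher. Few rows separate the 3 C234W columns from the 3 wild-type columns, and WT1A differs from WT2A and WT2B in Pdia4, Atf3, Ppp1r15a and Slc7a11.

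Among ER chaperones and folding enzymes the members divided evenly, 6 with a log2 fold change above 0 and 6 below, and the median was -0.02. Values are over the exons of 1 isoform per gene; on mm10 the models of Hspa5, Calr and Pdia4 span chr2:34772090-34776529, chr8:84842088-84846931 and chr6:47796141-47813512. The most abundant of them per length lay on the low side in C234W: Hspa5, Hsp90b1, Pdia3, Calr and Canx had log2 fold changes between -0.52 and -0.23. Hspa5 encodes BiP, the main Hsp70 chaperone of the ER and a standard readout of ATF6 activity. It had 189, 262 and 194 CPM in C234W libraries, against 229, 316 and 384 CPM in wild-type ones. FS3B exceeded WT1A, so the groups overlapped. The log2 fold change was -0.52 (SE 0.223), with an edgeR adjusted p of 0.185. Calr encodes calreticulin, a lectin that binds new glycoproteins. Its levels were 171, 234.2 and 180.0 CPM in C234W, against 257, 257 and 297 CPM in wild type. All C234W values were below all wild-type values, with a log2 fold change of -0.47 (SE 0.17, edgeR adjusted p = 0.139).

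Canx, the membrane-bound partner of calreticulin, had 254, 364 and 269 CPM in C234W, against 341, 366 and 404 CPM in wild type. Hsp90b1, the ER form of Hsp90, averaged 336 ± 43.1 CPM in C234W and 393 ± 28.5 CPM in wild type, and Pdia3, a disulfide isomerase that works with the lectins, averaged 146 ± 38.5 and 179 ± 21.1 CPM (SD, n = 3 each). For these genes FS3B was the highest C234W library and lay within the range of wild type. In 10 of the 12 genes of this arm FS3B had the highest C234W value, and in 8 FS3A had the lowest.

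Pdia4, a disulfide isomerase, showed another pattern. It had 45.9, 50.2 and 39.3 CPM in C234W, against 47.0, 25.3 and 22.7 CPM in wild type. WT1A stood with the C234W libraries, and the other 2 wild-type libraries were lower. The log2 fold change was 0.51 (SE 0.274, edgeR adjusted p = 0.269), and 0.92 (adjusted p = 0.0158) without WT1A. Hyou1, an Hsp110-type exchange factor for BiP, shared it, with 71.1, 91.1 and 72.1 CPM in C234W and 80.2, 52.9 and 53.5 CPM in wild type. Creld2, an ER protein with isomerase activity, also had its highest value in WT1A, 16.0 CPM.

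The other folding genes gave differences smaller than their spread. Dnajc3, a BiP co-chaperone, averaged 40.2 ± 7.65 CPM in C234W and 38.7 ± 2.63 CPM in wild type, and Pdia6, a disulfide isomerase, averaged 54.2 ± 14.6 and 54.0 ± 1.29 CPM (SD, n = 3 each). Manf, a secreted ER stress protein that protects neurons, averaged 26.5 ± 5.57 CPM in C234W and 27.3 ± 6.54 CPM in wild type (SD, n = 3 each). Sdf2l1, a cofactor of the BiP cycle, had 3.12, 3.13 and 3.66 CPM in C234W, against 3.59, 3.12 and 3.09 CPM in wild type. These are 42 to 66.5 counts per library, and the log2 fold change was 0.02 (SE 0.279).

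The 7 members with an ER stress element did not share a direction. Their log2 fold changes ran from -0.52 for Hspa5 to 0.15 for Creld2, with 4 below 0 and 3 above.

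In the IRE1/ATF6 arm, the members lay on both sides of 0, 3 above and 2 below. On mm10 the gene models of Xbp1, Herpud1 and Sel1l span chr11:5520641-5525993, chr8:94386429-94395371 and chr12:91806043-91849157. Xbp1 encodes the factor whose mRNA IRE1 splices, and it is itself a target of ATF6. It had 93.8, 86.9 and 75.6 CPM in C234W, against 67.6, 64.5 and 68.6 CPM in wild type. Every C234W value was above every wild-type value. The difference was 1.28-fold, a log2 fold change of 0.35 (SE 0.145, edgeR adjusted p = 0.174). Herpud1, which helps assemble the complex that sends misfolded ER proteins to the proteasome, had 40.0, 60.8 and 51.3 CPM in C234W, against 51.5, 96.3 and 101 CPM in wild type. WT1A lay among the C234W libraries and the other wild-type libraries above all of them. The log2 fold change was -0.71 (SE 0.269, edgeR adjusted p = 0.15), and -0.96 (adjusted p = 0.0178) without WT1A.

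Dnajb9, a BiP co-chaperone that restrains IRE1 and a target of spliced XBP1, had 20.6, 25.8 and 25 CPM in C234W, against 21.8, 31.9 and 35.1 CPM in wild type. Its order over the wild-type libraries, with WT1A lowest, was that of Herpud1 and Hspa5. Sel1l, the scaffold of the HRD1 ubiquitin ligase, had 115, 142 and 139.5 CPM in C234W, against 135, 96.8 and 91.2 CPM in wild type, where WT1A was instead the highest. Its log2 fold change was 0.29 (SE 0.188, edgeR adjusted p = 0.355). Edem1, which picks out misfolded glycoproteins for degradation, averaged 22.6 ± 4.12 CPM in C234W and 18.5 ± 2.29 CPM in wild type (SD, n = 3 each). Sel1l and Edem1 have long transcripts, of 6277 and 5844 bases. With the trend on transcript length removed, their log2 fold changes were 0.03 and 0.04, and the median of this arm was 0.03 in place of 0.29, while that of Xbp1 was 0.37.

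**Figure D3:**
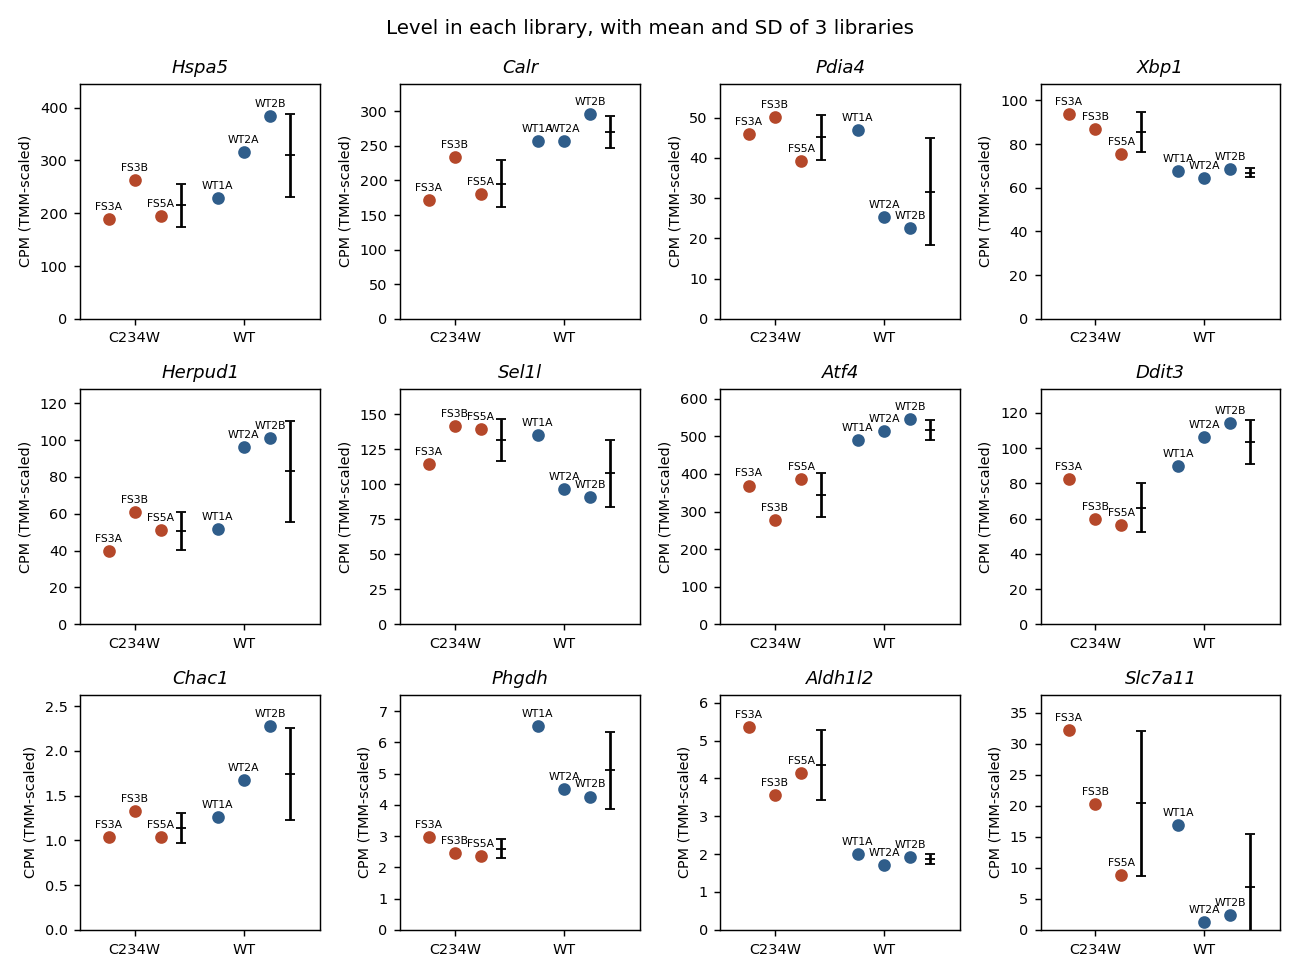
CPM in each library for the 12 members given in full, C234W left and wild type right, with the mean and SD of 3 libraries as a bar beside the points (for Slc7a11 in wild type the SD exceeds the mean, so the bar is cut at 0). Atf4, Ddit3, Calr and Phgdh lie wholly below wild type in C234W and Xbp1 and Aldh1l2 wholly above, while WT1A sits apart from WT2A and WT2B in Pdia4, Herpud1, Sel1l and Slc7a11.

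Among the regulators of the ATF4 arm, Atf4 and Ddit3 had the smallest p. On mm10 the models of Atf4, Ddit3 and Chac1 span chr15:80255184-80257545, chr10:127290793-127296288 and chr2:119351242-119354327. Atf4 encodes the transcription factor at the centre of the integrated stress response, whose protein level is set largely by translation of its mRNA. It had the highest level per length of all 33 members, 199.5 CPM per kilobase in C234W and 299.8 in wild type. Its levels were 369, 277 and 386 CPM in C234W, against 490.3, 515 and 545 CPM in wild type. The groups did not overlap, and the C234W libraries were further apart than the wild-type ones, at 344 ± 58.6 CPM in C234W and 517 ± 27.5 CPM in wild type (SD, n = 3 each). This is a log2 fold change of -0.59 (SE 0.173). The edgeR adjusted p was 0.0898, and the DESeq2 adjusted p was 0.0246.

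Ddit3 encodes CHOP, the ATF4-induced factor tied to cell death after prolonged ER stress. It had 82.5, 60.0 and 56.3 CPM in C234W, against 89.7, 106 and 114 CPM in wild type. FS3A came close to WT1A, but no values crossed. On the log2 scale the fold change was -0.64 (SE 0.187), with an adjusted p of 0.0885 by edgeR and 0.0318 by DESeq2. The transcript is short, 865 bases, and the value was -0.31 once the length trend was taken out.

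Of the 9 regulators, 2 had a log2 fold change above 0, Trib3 and Ddit4, and 7 had one below 0. This split depended on WT1A. Without it, Atf3 was at 0.08 in place of -0.35 and Ppp1r15a at 0.36 in place of -0.08, while the other regulators kept their sign. Trib3, a pseudokinase induced by ATF4 and CHOP, had 9.63, 6.45 and 9.999 CPM in C234W, against 6.38, 7.21 and 7.80 CPM in wild type. Chac1, which degrades glutathione and is among the most ATF4-dependent genes, had 1.04, 1.33 and 1.04 CPM in C234W, against 1.26, 1.67 and 2.28 CPM in wild type, or 17 to 31 counts per library. Its log2 fold change was -0.60 (SE 0.385, edgeR adjusted p = 0.351). Sesn2, a sestrin that restrains mTORC1, averaged 13.99 ± 1.44 CPM in C234W and 15.3 ± 1.82 CPM in wild type (SD, n = 3 each). Ddit4, another inhibitor of mTORC1, had 87.7, 89.8 and 84.6 CPM in C234W, against 77.3, 78.8 and 71.0 CPM in wild type. The Ddit4 groups did not overlap and its highest C234W library was 1.06-fold above its lowest, the narrowest range of any member in C234W, yet the difference was 1.15-fold and the edgeR adjusted p was 0.358.

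Atf3, Ppp1r15a and Atf5 gave differences between groups smaller than the SD of at least 1 group. Atf3, a stress-induced and immediate early factor, had 41.1, 22.1 and 22.6 CPM in C234W, against 55.1, 22.6 and 31.6 CPM in wild type. Ppp1r15a encodes GADD34, which directs the phosphatase that reverses eIF2 phosphorylation. It had 32.3, 24.5 and 30.3 CPM in C234W, against 46.5, 22.0 and 23.4 CPM in wild type. WT1A was the highest library for both. Immediate early genes respond to handling as well as to activity. The sum over 6 such genes moved in part with them. It was 1277, 1153 and 729 CPM in C234W and 1006, 567 and 572 CPM in wild type. The genes of this list did not share a direction. Fos, Junb, Egr1 and Ier2 had log2 fold changes of 0.62, 0.90, 0.76 and 0.95. Jun and Fosb were at -0.94 and -0.21, with WT1A the lowest wild-type library for both. Jun lay below wild type in C234W without overlap. The part of immediate early genes in these values was not tested. Atf5, a mitochondrial stress factor, had 43.2, 26.5 and 22.4 CPM in C234W, against 37.8, 31.8 and 33.2 CPM in wild type.

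Amino acid and one-carbon genes held the largest differences in both directions. On mm10 the models of Aldh1l2, Phgdh and Slc7a11 span chr10:83487447-83534140, chr3:98313171-98339969 and chr3:50364936-50443613. Aldh1l2, the mitochondrial enzyme that oxidizes 10-formyltetrahydrofolate, had 5.37, 3.56 and 4.15 CPM in C234W, against 1.99, 1.72 and 1.91 CPM in wild type. All C234W libraries were above all wild-type ones. These levels rest on 98.5, 75 and 67.5 counts in C234W and 29.5, 32.5 and 26 counts in wild type. The difference was 2.32-fold, a log2 fold change of 1.21 (SE 0.308), and its edgeR adjusted p of 0.0676 was the smallest among members; by DESeq2 it was 0.0133. Aldh1l2 nonetheless had the lowest level per length in wild type, 0.312 CPM per kilobase, and 0.725 in C234W. With the length trend removed its log2 fold change was 0.96.

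Phgdh, the first enzyme of serine synthesis and a gene expressed in glia of the nervous system, had 2.96, 2.47 and 2.38 CPM in C234W, against 6.51, 4.52 and 4.27 CPM in wild type. The groups did not overlap. Phgdh had a log2 fold change of -0.97 (SE 0.3), with an adjusted p of 0.1 by edgeR and 0.0419 by DESeq2. Psat1, the next enzyme of the same pathway, was more abundant and averaged 47.9 ± 8.52 CPM in C234W and 47.9 ± 12.3 CPM in wild type (SD, n = 3 each), a log2 fold change of -0.0008 (SE 0.224). Beside Phgdh, markers of Müller glia, the main glia of the retina, summed to between 3775 and 4968 CPM over 6 genes in C234W and between 4748 and 6632 CPM in wild type. None of these markers was at 0 counts, and 3 of 6 lay below wild type without overlap (Glul, Rlbp1 and Apoe). Of all genes tested, 16.4% did so. For Aqp4, Slc1a3 and Dkk3 the groups overlapped, with log2 fold changes of 0.59, 0.02 and -0.08. The part of Müller glia in the Phgdh difference was not tested.

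Slc7a11, the cystine transporter of glutathione supply, had the widest range. It had 32.2, 20.3 and 8.78 CPM in C234W, against 16.9, 1.29 and 2.35 CPM in wild type. WT1A was 13.1-fold above the lowest wild-type library and above FS5A, so the groups overlapped. The log2 fold change was 1.58 (SE 0.907, edgeR adjusted p = 0.307), and 3.52 (SE 0.606, adjusted p = 0.0138) without WT1A. Reactive glia markers, 5 of 5 above 0 counts, followed a related order: their sum was 599, 366 and 53.9 CPM in C234W and 131, 61.5 and 58.0 CPM in wild type. FS3A, FS3B and WT1A were the highest libraries for both. The part of reactive glia in the Slc7a11 values was not tested.

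The remaining metabolic genes differed between groups by less than the SD of 1 group or both. Asns, the asparagine synthetase and a classic amino acid response gene, had 21.1, 37.3 and 23.5 CPM in C234W, against 22.7, 28.7 and 33.0 CPM in wild type. Shmt2, which makes one-carbon units from serine in mitochondria, averaged 24.2 ± 1.55 CPM in C234W and 20.8 ± 4.71 CPM in wild type, and Mthfd2, which acts after it, averaged 4.42 ± 0.555 and 5.58 ± 2.07 CPM (SD, n = 3 each). The median log2 fold change of this arm was -0.0008, and that of the ATF4 regulators -0.16.

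**Figure D4:**
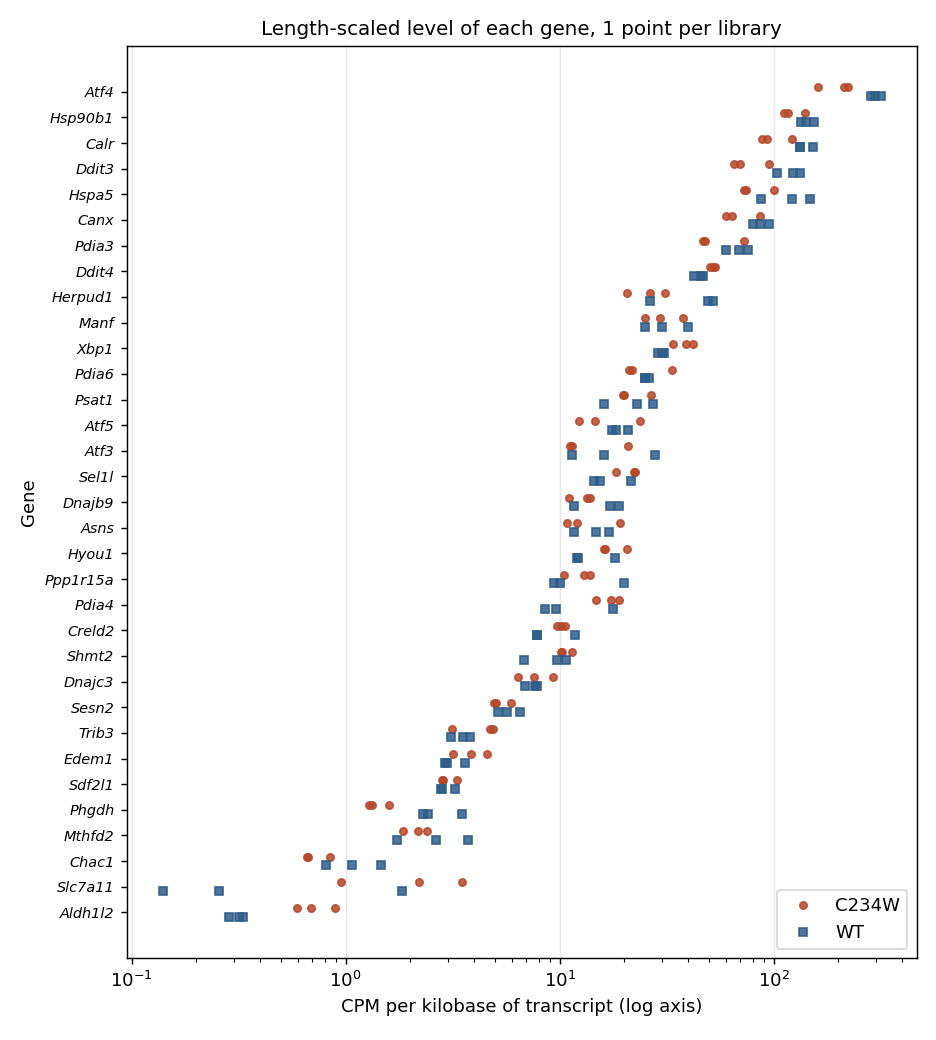
Level of each gene per kilobase of transcript (log axis), 1 point per library, with C234W circles drawn above wild-type squares and genes ordered by their wild-type mean. Levels span from 0.312 CPM per kilobase for Aldh1l2 to 299.8 for Atf4 in wild type, and Atf4 is the highest in both groups.

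Per length, the wild-type order ran Atf4, Hsp90b1, Calr, Ddit3, Hspa5, Canx and Pdia3, from 299.8 down to 68.2 CPM per kilobase, with Ddit3 and Hspa5 nearly equal at 119.6 and 118.7. In C234W, Hsp90b1 and Calr remained behind Atf4, at 123 and 101 CPM per kilobase, and Hspa5 at 82.6 came before Ddit3 at 76.6. The values of Ddit3 and Hspa5 overlapped over libraries in both groups. The genes below 5 CPM per kilobase in both groups were Trib3, Edem1, Sdf2l1, Phgdh, Mthfd2, Chac1, Slc7a11 and Aldh1l2.

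In edgeR the calls of members depended on 1 wild-type library, while DESeq2 called 4 members with all 6 libraries. Without WT1A, 8 members passed in edgeR: Pdia4, Hyou1, Aldh1l2 and Slc7a11 were higher in C234W, and Hspa5, Herpud1, Atf4 and Ddit3 were lower. That is 12.1% of members in each direction, while 9.13% of all genes were then called higher and 9.39% lower. Hspa5 had a log2 fold change of -0.69 (adjusted p = 0.0427), Atf4 one of -0.62 (adjusted p = 0.0493), Ddit3 one of -0.73 (adjusted p = 0.0362) and Hyou1 one of 0.56 (adjusted p = 0.0498). The 2 wild-type libraries left in this fit share a number in their names. With any other library left out, 0 members passed, but then hardly any gene did: 0 of the whole table without WT2A, WT2B, FS3A or FS3B, and 2 higher and 2 lower (0.0267% in all) without FS5A. Those fits therefore say nothing particular about the members. WT1A also had the highest sum of pigment epithelium markers, 452 CPM over 6 genes, against 128 and 68.0 CPM in the other wild-type libraries and between 72.0 and 106 CPM in C234W. Most of that sum was Ttr, 327 CPM in WT1A. Rpe65, Lrat and Tyrp1 were also highest in WT1A. Rrh was not, with 16.3 CPM in WT1A against 19.0 and 19.9 CPM in WT2A and WT2B. Best1 had 0.4 CPM in WT1A and was higher in each C234W library. The part of pigment epithelium in the values of the members was not tested.

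**Figure D5:**
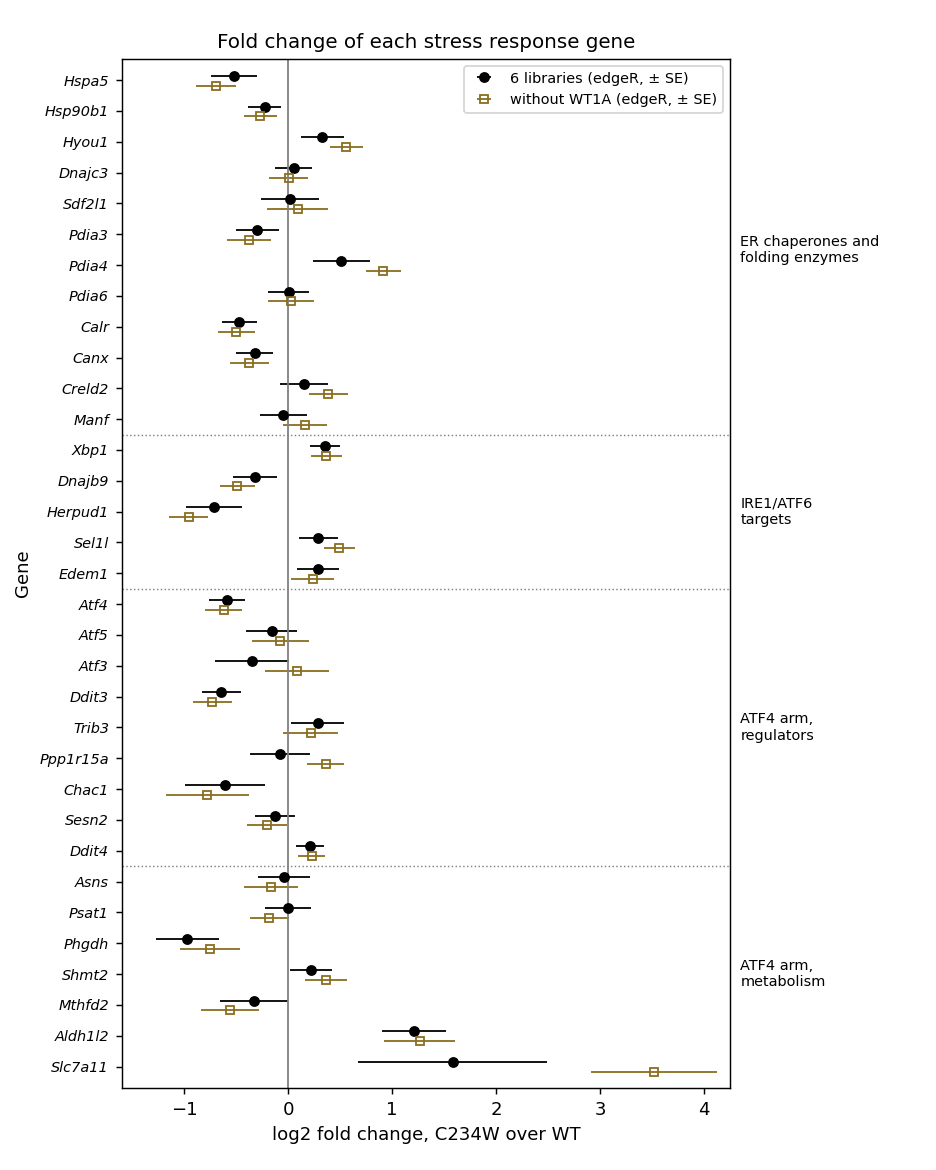
Log2 fold change of C234W over wild type with its SE for each gene, in all 6 libraries (black circles) and without WT1A (open squares), zero marked by a line. Without WT1A, Pdia4 is at 0.92 in place of 0.51, Herpud1 at -0.96 in place of -0.71 and Slc7a11 at 3.52 in place of 1.58, while Atf4, Xbp1 and Aldh1l2 stay near their values.

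Beyond the members, 83 further genes of these pathways were listed and 80 were tested. None passed in edgeR in either direction, where 0.184% of all genes were called higher and 1.28% lower. At an unadjusted p under 0.05, 8 of the 80 were higher and 16 lower, against 11.9% and 13.5% of all genes. DESeq2 called 2 higher and 8 lower, against 5.0% and 7.69% of all genes. Among 18 sensors and signalling genes, 4 were higher and 1 was lower at that unadjusted p, and the median log2 fold change was 0.24. With the length trend removed that median was 0.12. In ER-associated degradation, 1 of 14 genes was higher and 6 were lower; among 19 folding and translocation genes, 1 was higher and 6 were lower, and among 29 further ATF4 targets, 2 were higher and 3 were lower. The medians of these lists were -0.30, -0.21 and -0.10, and with the length trend removed -0.31, -0.25 and -0.12.

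The smallest p among them belonged to Selenos and Ube2j2, both of ER-associated degradation. Selenos, a selenoprotein that links the p97 ATPase to the ER membrane, had 25.8, 29.4 and 32.3 CPM in C234W, against 45.0, 56.3 and 51.0 CPM in wild type. Its log2 fold change was -0.80 (SE 0.166), with an adjusted p of 0.052 by edgeR and 0.0022 by DESeq2. Ube2j2, an ER-anchored ubiquitin-conjugating enzyme, had 29.7, 31.9 and 32.1 CPM in C234W, against 45.6, 56.4 and 66.2 CPM in wild type, a log2 fold change of -0.84 (SE 0.176), with an adjusted p of 0.052 by edgeR and 0.00211 by DESeq2. Ero1l, the oxidase that recharges disulfide isomerases, lay on the other side of 0. It had 39.3, 32.4 and 40.0 CPM in C234W, against 21.9, 24.5 and 21.0 CPM in wild type, a log2 fold change of 0.73 (SE 0.166, edgeR adjusted p = 0.0576). None of the 3 had overlapping groups.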

How the data were processed

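Poly-A RNA of whole mouse retina was sequenced in 6 libraries. The authors aligned to mm10 and counted exonic tags of unique mappers, on 1 strand and for 1 isoform of each locus, per the file headers and the series' design text. The submitters' processing notes name STAR 2.7.8a, and HOMER and DESeq2 without a version. The series' design text names HOMER 4.11. What they deposited is estimated counts that were not normalized and come in steps of 0.5, and 28.3 to 32.1% of the values of a library were not whole. Counting 1 isoform ties each value to the isoform kept.

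Counts were rounded, genes were filtered with filterByExpr and scaled by TMM. C234W was compared with wild type across all 14685 genes tested by the quasi-likelihood test of edgeR 4.0.16 (R 4.3.3) with no covariate and Benjamini-Hochberg adjustment (threshold 0.05). The SE of a log2 fold change was derived from its F statistic. Alternatives were DESeq2 1.42.0, limma 3.58.1 (voom), other scalings and filters, a loess trend on transcript length (span 0.3) removed from each library, leaving out each library, and summing libraries that share a number in their names. The scripts were tested on simulated data. Columns named WT were taken as wild type and the 3 named FS as C234W by elimination. All 6 columns of libraries were used, and 0 were set aside. The smallest chi-square between 2 libraries was 10.4 per degree of freedom (WT2A and WT2B), so none was treated as a duplicate.

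The members and gene lists were chosen with earlier results of these data known. Members past the threshold, the 3 members with the smallest p in each arm and 4 central genes (Hspa5, Xbp1, Atf4 and Ddit3) are given in full, as are the 3 other pathway genes with the smallest p. Promoter windows are those of RefSeq on GRCm38.p6, and 30 of the 33 members had one.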

Additional observations from a re-analysis of the deposited data

How the results depend on the processing

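Of the tabulated alternatives, none reversed the direction of a member given in full. Other members did change sign. Without WT1A, log2 fold changes went from -0.35 to 0.08 for Atf3, -0.08 to 0.36 for Ppp1r15a and -0.04 to 0.16 for Manf. With the length trend removed, that of Dnajc3 went from 0.05 to -0.18. No paired analysis was possible because the column names carry none of the replicate numbers of the labels. By DESeq2, 1 member was called higher and 3 lower, and 2 other pathway genes higher and 8 lower. Of all genes, DESeq2 called 5.0% higher and 7.69% lower. Without a filter on low counts, 2 other pathway genes were called lower (Selenos and Ube2j2), as were 272 of all 19140 genes then tested. Leaving out each library gave 0 to 4 members higher and 0 to 4 lower, and 0 to 8 other pathway genes higher and 0 to 10 lower. Each of the nonzero counts came without WT1A, when 9.13% of all genes were called higher and 9.39% lower. Over those leave-outs the arm medians ran from -0.229 to 0.0228 for chaperones, 0.15 to 0.283 for IRE1/ATF6 targets, -0.484 to -0.0751 for ATF4 regulators and -0.165 to 0.18 for metabolic genes. With total-count scaling the median over all genes was 0.205, and the first 3 of these medians to 0.174, 0.46 and 0.03. With the length trend removed the IRE1/ATF6 median was 0.0331, and with libraries of the same number summed that of ATF4 regulators was -0.314. RLE, upper-quartile and total-count scaling, the length trend, the summed libraries and leaving out WT2A, WT2B, FS3A or FS3B each called 0 genes of the whole table in edgeR, and leaving out FS5A called 2 higher and 2 lower, so their counts of 0 members say nothing particular about the members. The cause was not tested. Chac1 rests on 17 to 31 counts per library and Phgdh on 39 to 98.5, which limits their precision.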
